A study of Mus musculus with 3 samples.

Results

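RNA-rich and RNA-poor haematopoietic stem cells (HSCs) were 590 and 597 of the 3757 called cells of 1 preparation, selected on the number of RNA molecules counted per fragment of open chromatin. The cells came from the bone marrow of wild-type C57BL/6 mice, female and 8 weeks old, were enriched with c-Kit beads and sorted as LSK CD48− CD150+ CD34− cells, and the number of mice is not given. DOGMA-seq read open chromatin (ATAC), RNA and antibody tags from the same cell, and all 3757 called cells held at least 1 ATAC fragment and 1 RNA molecule under the same barcode. Both groups shared genotype, age, sort and library, and no treatment was named. The question put to them was where the open chromatin of a cell lies when its RNA content is high or low for its ATAC depth.

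The groups were chosen by the ratio of RNA molecules (unique molecular identifiers, UMIs) to ATAC fragments. Cells with over 3000 fragments in peaks numbered 3108, and 151 of them with over 20000 fragments were dropped, which left 2957 to be ranked. These were divided into 10 depth bins by fragments per cell, and within each depth bin into 5 ratio bins of like size, of which ratio bin 1 is called RNA-poor and ratio bin 5 RNA-rich. At the limits, the nearest cells held 3003 (inside) and 2990 (outside) fragments in peaks, and 19951 (inside) and 20011 (outside) fragments. In the shallowest depth bin the RNA-rich cells began at 0.878 UMIs per fragment, with the next cell at 0.865, and the RNA-poor cells ended at 0.508, with the next at 0.509. In the deepest depth bin the RNA-rich cells began at 0.359, with the next cell at 0.358, and both sides of the RNA-poor limit were at 0.221.

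As the selection fixes, the median UMIs per cell went from 2592 in ratio bin 1 through 3265.5, 3776.5 and 4298.5 to 5322.5 in ratio bin 5. RNA-poor cells ranged from 234 to 4095 UMIs and RNA-rich cells from 3764 to 17301, so their ranges overlapped across depth bins. The median number of genes per cell was 1520 in RNA-poor and 2538.5 in RNA-rich cells, which describes the same choice. ATAC depth was alike over the whole groups, with a median of 11272 fragments per RNA-poor cell and 11281 per RNA-rich cell. On the chromosomes used they held 6675918 and 6546757 fragments in all. Within the shallowest depth bin it was less even, with 349187 fragments in 60 RNA-poor and 298126 in 59 RNA-rich cells.

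**Figure D1:**
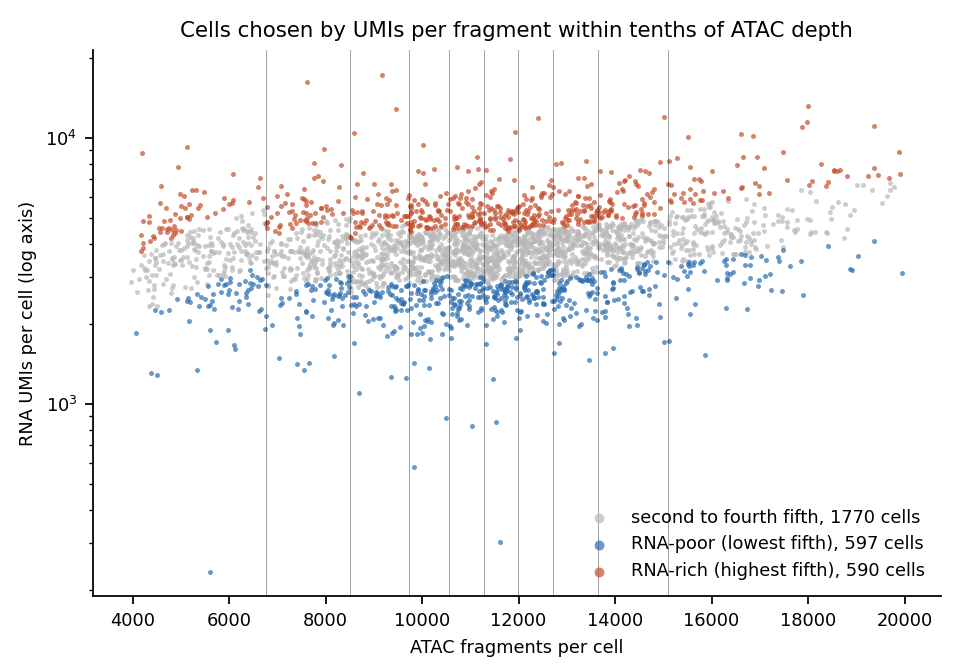
RNA UMIs per cell (vertical, log axis) against ATAC fragments per cell for the 2957 ranked cells, 1 point each, with vertical lines between the 10 depth bins. The 590 RNA-rich cells and the 597 RNA-poor cells form the upper and the lower edge of the cloud at every depth, because they were chosen there.

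HSCs renew themselves, give rise to every blood lineage and rest outside the cell cycle most of the time. ATAC reads where a transposase can reach the DNA, which is mostly at promoters and enhancers and, at a lower level, along gene bodies. Most RNA of a cell is ribosomal RNA, made by RNA polymerase I from repeated genes, whereas the UMIs counted here come mainly from transcripts of RNA polymerase II.

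The loci of HSC markers were open in both groups. Levels are fragments per 10000000 fragments of a group, and the promoter is the sum of windows from 1000 bp before to 500 bp after each annotated start of a gene. Over bodies and promoters together, 10 of 10 HSC markers held 10.7 per kb in RNA-rich and 11.6 per kb in RNA-poor cells, against 7.60 and 7.64 per kb over all protein-coding genes. The highest HSC marker was Hoxa9, a homeobox factor, at 74.4 and 87.6 per kb. Markers of multipotent and lymphoid-primed progenitors stood at 11.3 per kb in both groups, neutrophil markers at 9.65 in RNA-rich and 10.4 in RNA-poor cells, and erythroid markers at 9.45 and 9.78, so these levels alone do not tell HSCs from other blood cells.

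RNA-rich HSCs had a smaller share of their fragments at promoters and a larger share in gene bodies and far from promoters. The promoter share was 44.96% in RNA-poor cells (exact 95% binomial interval 44.92 to 44.99), 45.09%, 44.82% and 44.48% in ratio bins 2 to 4, and 43.99% (43.96 to 44.03) in RNA-rich cells. All intervals given here cover counting error only, since 1 preparation has no replicates and its cells are not replicates. The share of fragments in promoters differed by −0.96 percentage points (−1.02 to −0.91), and it was −0.52 points when the ratio was taken from intronic UMIs. RNA-rich cells had the lower promoter share in 9 of 10 depth bins, with depth bin 3 at 0.08 points and a range from −1.39 to 0.08.

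The share in gene bodies outside promoters was lowest in RNA-poor cells, at 28.76%, passed through 28.85%, 29.02% and 29.21%, and was highest in RNA-rich cells, at 29.48%. It was higher in RNA-rich cells in 10 of 10 depth bins, by 0.18 to 1.03 points, and its whole difference of 0.72 points was 0.37 with the ratio from intronic UMIs. Fragments in 500 bp tiles centred over 2000 bp from every annotated transcript start made up 42.01% in RNA-poor and 42.98% in RNA-rich cells. The difference of 0.97 points was 0.60 with intronic UMIs and 1.49 with bins and ratio taken on fragments in peaks. That last measure is tied to the distal share, so the choice of cells can partly set the 1.49 points. These shifts are small beside the spread of single cells, for which the middle 50% of promoter shares ran from 43.3% to 47.9% in RNA-poor and from 42.9% to 46.3% in RNA-rich cells.

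**Figure D2:**
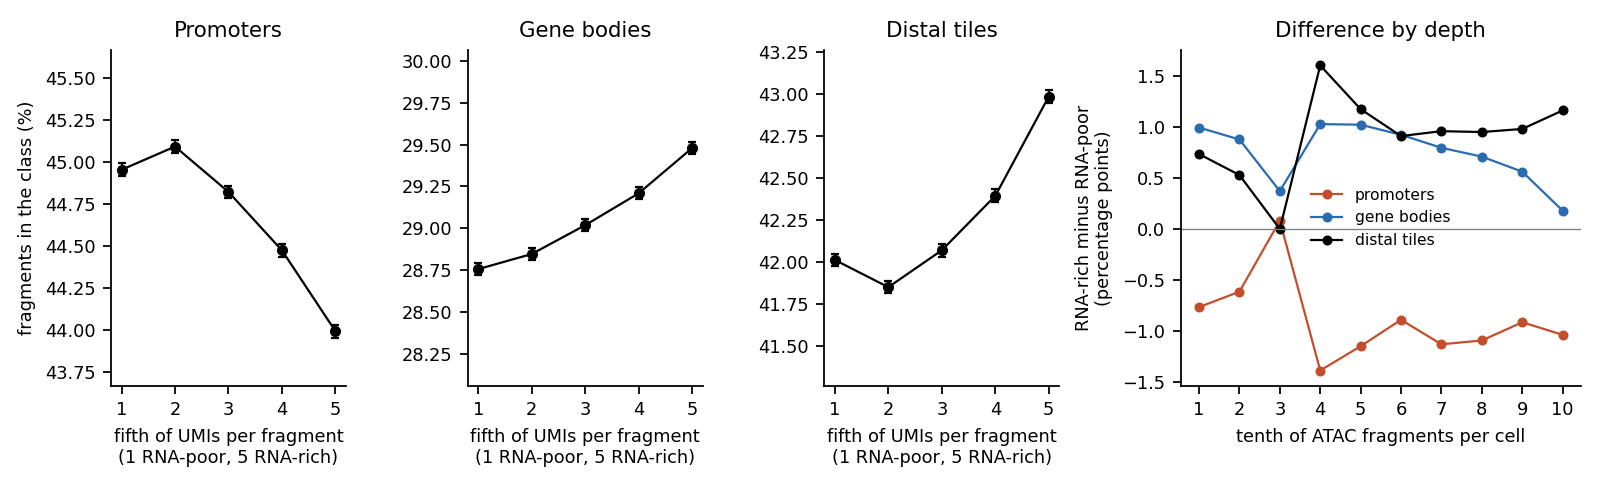
Share of fragments (percent, with 95% counting interval) at promoters, in gene bodies and in distal tiles over ratio bins 1 (RNA-poor) to 5 (RNA-rich), and the difference RNA-rich minus RNA-poor (percentage points) in depth bins 1 to 10. Promoters went from 44.96% to 43.99% and gene bodies from 28.76% to 29.48%, and only depth bin 3 had a promoter difference above 0, at 0.08 points.

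The ribosomal RNA locus, the template of RNA polymerase I, held fewer fragments in RNA-rich HSCs. The genome build GRCm38 has a stretch of this repeat at chr17:39843013-39848827, where the annotation places the ribosomal RNA gene CT010467.1 and the long noncoding gene Gm26917, and it was chosen after the values of the chromosomes were seen. Its share of fragments was 0.780% in RNA-poor cells, 0.726%, 0.746% and 0.737% in ratio bins 2 to 4, and 0.653% in RNA-rich cells. That is 52100 against 42723 fragments, a log2 difference of −0.26 (−0.28 to −0.24), which was −0.43 between the highest and lowest 1 in 10 cells by ratio, −0.09 with the ratio from exonic UMIs and −0.16 in depth bins 6 to 10. It was below 0 in 10 of 10 depth bins, from −0.53 to −0.01. The median cell held 0.668% there among RNA-poor and 0.541% among RNA-rich cells, while ratio bin 4 over ratio bin 2 gave 0.02, so the locus stood apart at the ends of the range and not between them. Chromosome 17 as a whole was at −0.03 and without the locus at −0.00.

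Gene bodies were compared to see which transcribed units gained or lost open chromatin in RNA-rich cells. Summed over each list, genes of HSC identity had fewer fragments in RNA-rich cells, and genes of ribosome biogenesis and long neuronal genes had more, although only 3 ribosome biogenesis members could be tested. Of 21755 protein-coding genes, 3902 had at least 300 fragments in both groups together, and of these 179 (4.59%) were higher and 97 (2.49%) lower in RNA-rich cells by a fold of at least 0.32 in log2. In depth bins 1 to 5 alone these were 55 and 28, and in depth bins 6 to 10 95 and 89, nearly even. Over all 3902, 2087 (53.5%) were above 0 and the median log2 difference was 0.01. A gene body with 300 fragments has a 95% counting interval of ±0.34 in log2, wider than that fold, so single genes near that minimum can pass the fold through counting error. The cells of ratio bins 2 and 4 took no part in these calls, and between them 115 of the 179 higher gene bodies (64.2%) and 44 of the 97 lower ones (45.4%) were above 0, against 52.1% of all tested.

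**Figure D3:**
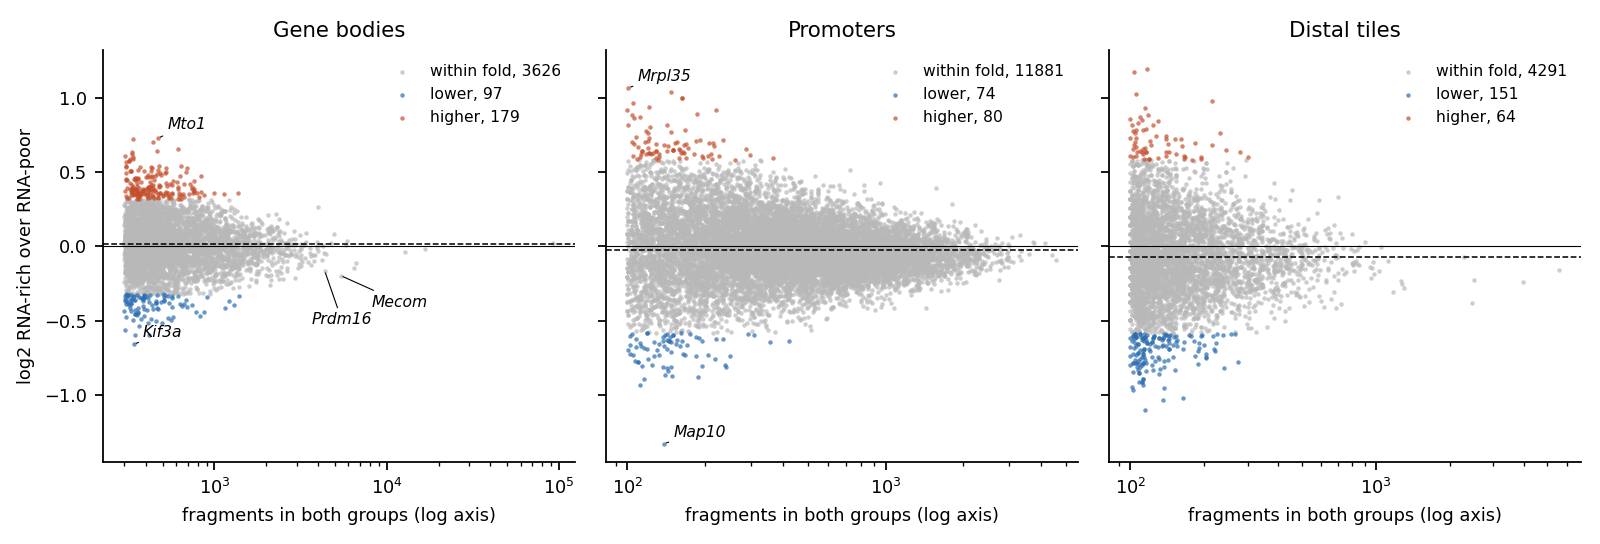
Log2 difference RNA-rich over RNA-poor against fragments in both groups (log axis) for 3902 gene bodies, 12035 promoters and 4506 distal tiles of 500 bp, 1 point each, with the median dashed at 0.01, −0.03 and −0.07. Points past the fold (0.32 in log2 for gene bodies, 0.58 for promoters and tiles) are colored, and those with most fragments, such as Mecom at −0.20, lie within the fold.

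HSC identity and self-renewal factors, the transcription factors and receptors that hold HSCs in their state, were lower as a group in RNA-rich cells. Summed over 25 gene bodies they held 20644 fragments in RNA-poor and 19247 in RNA-rich cells, a log2 difference of −0.07 (−0.10 to −0.04), and the sum was below 0 in 9 of 10 depth bins. Of 18 members tested, 3 were above 0, with a median of −0.09 against 0.01 for all gene bodies. None passed the fold, which says little beside the 4.59% higher and 2.49% lower of all gene bodies. Mecom, a zinc finger factor that HSCs need to persist (chr3:29951296-30548008), had levels of 4381, 4178, 4097, 4132 and 3820 from ratio bin 1 to 5, a difference of −0.20 (−0.28 to −0.12). Prdm16, a related factor of HSC maintenance, had levels of 3490, 3346, 3187, 3154 and 3113, a difference of −0.16 (−0.25 to −0.08). Hlf, a factor active in HSCs and little in later cells, was at −0.20 (−0.40 to −0.01). Fli1, an ETS factor shared with megakaryocytes, went the other way at 0.16 (0.02 to 0.30), with levels of 1179 and 1318.

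The same direction was seen in the shorter list of HSC markers, which shares members with the first. Its 10 gene bodies had a summed difference of −0.13 (−0.18 to −0.08), below 0 in 9 of 10 depth bins, and 2 of 7 members tested were above 0. The identity list was −0.02 with the ratio from exonic UMIs, −0.11 with intronic UMIs, −0.01 in depth bins 1 to 5 and −0.11 in depth bins 6 to 10, and the marker list was −0.09 with exonic UMIs and −0.08 in depth bins 1 to 5. At promoters the identity list differed by −0.06 (−0.11 to −0.02), with 8 of 23 members above 0, against 44.3% of all promoters, and 1 of them past the fold, on the lower side, against 0.615%. The 2407 promoters with most fragments had a median of −0.05, and the list was not set against promoters of like fragment number. Without Mecom, left out after seeing the data, the identity bodies were at −0.05 (−0.08 to −0.02) and the marker bodies at −0.09 (−0.15 to −0.04). The promoter of Fgd5, an HSC marker, was at 0.35 (0.01 to 0.70).

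Ribosome biogenesis genes, which make and process ribosomal RNA, had more fragments in their bodies in RNA-rich HSCs. The 26 bodies together had levels of 2286, 2404, 2485, 2669 and 2739 from ratio bin 1 to 5, a log2 difference of 0.26 (0.16 to 0.36) that was 0.15 with the ratio from intronic UMIs. The sum was above 0 in 9 of 10 depth bins, and ratio bin 4 over ratio bin 2 gave 0.15 (0.05 to 0.25). All 3 members tested were above 0, against 53.5% of all gene bodies, which says little with so few members. Polr1a, the largest subunit of RNA polymerase I, was the 1 past the fold, against 4.59% of all gene bodies higher. It had 135 fragments in RNA-poor and 188 in RNA-rich cells, a difference of 0.51 (0.18 to 0.84). Ncl, the nucleolar protein nucleolin, was at 0.30 (−0.02 to 0.63), and Bop1, which matures the large ribosomal subunit, at 0.24 (−0.01 to 0.49).

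The promoters of ribosome biogenesis genes as a group did not follow, with a summed difference of 0.01 (−0.03 to 0.05) and 13 of 25 members above 0. Ncl was an exception at its promoter too, with levels of 1230, 1363, 1445, 1408 and 1500 and a difference of 0.29 (0.15 to 0.42), and the promoter of Polr1a was at 0.49 (0.12 to 0.86). The bodies of 82 cytosolic ribosomal protein genes had a summed difference of 0.12 (0.03 to 0.22), which was 0.05 with intronic UMIs. Only 3 of them reached the minimum, of which 1 was above 0, with a median of −0.00. Their promoters were at −0.02 (−0.05 to 0.00), which turned to 0.00 relative to the median promoter. Rps4x, a subunit of the small ribosomal part, was the 1 promoter of 79 tested past the fold, at −0.66 (−1.13 to −0.20), which is near the 0.615% of all promoters that were lower. Bodies of translation factors were at 0.06 (−0.03 to 0.15) with a turn to −0.06 with intronic UMIs and to −0.02 between the highest and lowest 1 in 10 cells by ratio, and their promoters were at −0.02 (−0.06 to 0.01), above 0 relative to the median promoter.

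Long neuronal genes, which blood cells hardly transcribe and which cover much closed chromatin, also had more fragments in RNA-rich HSCs. Their 25 bodies held 8669 fragments in RNA-poor and 9688 in RNA-rich cells, a difference of 0.19 (0.15 to 0.23). Per length this was a low level, at 0.383 and 0.436 per kb against 7.64 and 7.60 for bodies with promoters of all genes. Of 20 members tested 16 were above 0 and 6 were past the fold, all higher, with a median of 0.23, whereas over all gene bodies tested 53.5% were above 0 and 4.59% higher past the fold. Dlg2, a scaffold of synapses, was at 0.22 (0.10 to 0.34), and Nrg3, a neuregulin, at −0.25.

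The long neuronal sum was above 0 in 8 of 10 depth bins, from −0.05 to 0.40. It was 0.12 with at most 15000 fragments per cell, 0.07 with intronic UMIs and 0.04 in depth bins 1 to 5. The level stood apart mainly in the last step, at 13162 in ratio bin 4 and 14798 in ratio bin 5, and ratio bin 4 over ratio bin 2 gave 0.03 (−0.01 to 0.08). Length moved the same way across all tested gene bodies: those of at least 185147 bp had a median of 0.05 with 62 higher and 9 lower past the fold, and the shortest group had a median of −0.01 with 39 higher and 34 lower. The bodies of 1453 chemosensory receptor genes, also little used in blood, had levels of 4509, 3965, 4125, 4165 and 4517 from ratio bin 1 to 5, and the direction of their difference held in 8 of 14 alternatives. Olfr56 alone held 1002 of their fragments.

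Platelet and megakaryocyte genes, part of which HSCs of platelet-biased kind express, had slightly more fragments in gene bodies of RNA-rich cells. Their 24 bodies were at 0.08 (0.03 to 0.13), at 0.05 with at most 15000 fragments per cell and at 0.02 with intronic UMIs. Of 7 members tested, 5 were above 0, against 53.5% of all gene bodies. None passed the fold, which says little beside the 4.59% higher and 2.49% lower of all gene bodies. The sum was above 0 in only 6 of 10 depth bins, from −0.17 to 0.26. Selp, the platelet adhesion receptor P-selectin, was the highest at 0.31 (0.10 to 0.52), and Plek, a signal protein of platelets, the lowest at −0.17. Their promoters stood at −0.03 (−0.09 to 0.03). Among them Gp9, a subunit of the receptor for von Willebrand factor, was higher at 0.63 (0.16 to 1.10), with levels of 98.9 and 153. Of 15 promoters of this list tested, 1 more passed the fold and was lower, so 1 was higher and 1 lower, against 0.665% and 0.615% of all promoters.

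Gene lists carrying the names PLT and MUL of the study differed slightly in gene bodies. They are lists of gene symbols, not the ATAC signatures by which the study assigned its clusters. The 65 PLT bodies found were at −0.06 (−0.10 to −0.03) with 6 of 19 members tested above 0, and the 58 MUL bodies at 0.06 (0.02 to 0.11) with 13 of 19 above 0. PLT was below 0 in 7 and MUL above 0 in 9 of 10 depth bins. PLT shares Mecom with the identity list, and without Mecom, left out after seeing the data, it was at −0.03 (−0.07 to 0.01), an interval that holds 0. PLT had 2 of 19 members past the fold, both lower, against 2.49% of all gene bodies, among them Htra3, a secreted protease, at −0.43 (−0.72 to −0.14). MUL had 2 of 19, both higher, against 4.59%, among them Afap1, an actin-binding adaptor, at 0.35 (0.14 to 0.57). PLT was −0.13 between the highest and lowest 1 in 10 cells by ratio, −0.01 in depth bins 1 to 5 and −0.10 in depth bins 6 to 10, and MUL was 0.11 and, with intronic UMIs, 0.03. At promoters both were lower in RNA-rich cells, PLT at −0.06 (−0.09 to −0.02) and MUL at −0.08 (−0.13 to −0.04).

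Genes of cell cycle entry differed little as a group, with single members apart. Bodies of G1 entry and growth genes were at 0.05 (0.01 to 0.10), with 9 of 13 members tested and 7 of 10 depth bins above 0, and stood at −0.00 in 1 of 14 alternatives. Ccnd3, the D cyclin of blood cells, had 1252 fragments in RNA-poor and 1373 in RNA-rich cells, a difference of 0.16 (0.05 to 0.27). Promoters of these genes were at −0.02 (−0.05 to 0.02), above 0 relative to the median promoter, but that of Ccne2, cyclin E2, had levels of 452, 429, 526, 499 and 648, a difference of 0.52 (0.30 to 0.74). Promoters of S, G2 and M phase genes were at 0.05 (0.01 to 0.09), with 18 of 29 above 0 but a sum above 0 in only 5 of 10 depth bins. The promoter of Cdt1, which licenses replication origins, was at 0.39 (0.16 to 0.61). That of Aurkb was on the other side at −0.39 and kept its direction in 12 of 13 alternatives. Gene bodies of S, G2 and M phase genes were at 0.09 (−0.03 to 0.21). Their only member tested was Cdc6, another licensing factor, which was lower at −0.54 (−0.85 to −0.23).

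Quiescence genes and inhibitors of cyclin-dependent kinases were lower at promoters, at −0.07 (−0.11 to −0.03) with 6 of 22 members above 0, against 44.3% above 0 and a median of −0.03 over all promoters. Ratio bin 4 over ratio bin 2 gave −0.01 (−0.05 to 0.03) for them, and their gene bodies were at −0.03 (−0.09 to 0.03). Over all promoters, the median was 0.01 in the 2407 with fewest fragments and −0.05 in the 2407 with most. No list was set against promoters of like fragment number, so part of its difference may go with coverage, which was not tested. Tgfbr2, a receptor of the TGF-beta signal that keeps HSCs quiet, was the 1 promoter of 22 past the fold, against 0.615% of all promoters lower, with 157 fragments in RNA-poor and 92 in RNA-rich cells and a difference of −0.74 (−1.13 to −0.36). Between ratio bins 2 and 4 that promoter was at 0.01 (−0.39 to 0.41). The promoter of Cdkn1a, the inhibitor p21, was on the other side at 0.30.

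Genes of RNA polymerase II and elongation differed by −0.01 (−0.07 to 0.04) in bodies and −0.05 (−0.08 to −0.01) at promoters, with 12 of 30 promoters above 0, near the 44.3% of all promoters, whose median was −0.03. Nuclear genes of the respiratory chain were at −0.12 (−0.23 to −0.01) in bodies, with a turn to 0.03 in depth bins 1 to 5, and at −0.02 (−0.07 to 0.03) at promoters, above 0 relative to the median promoter. Immediate-early and AP-1 genes were at −0.03 (−0.09 to 0.03) in bodies and −0.03 (−0.07 to 0.01) at promoters. Interferon-stimulated genes were at −0.06 (−0.19 to 0.06) and −0.04 (−0.11 to 0.03), with the promoter of Irf7, a regulator of interferon genes, at −0.43 (−0.75 to −0.11). The 6 genes of the sort gate were at −0.01 (−0.13 to 0.11) and 0.05 (−0.14 to 0.24), and replication-dependent histones at 0.02 (−0.11 to 0.15) and 0.00 (−0.04 to 0.04). Bodies of quiescence genes crossed 0 in 2 of 14 alternatives, and bodies of RNA polymerase II genes and of immediate-early genes in 4 of 14. Promoters of long neuronal and of chemosensory genes were each at −0.01, and turned above 0 relative to the median promoter.

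**Figure D4:**
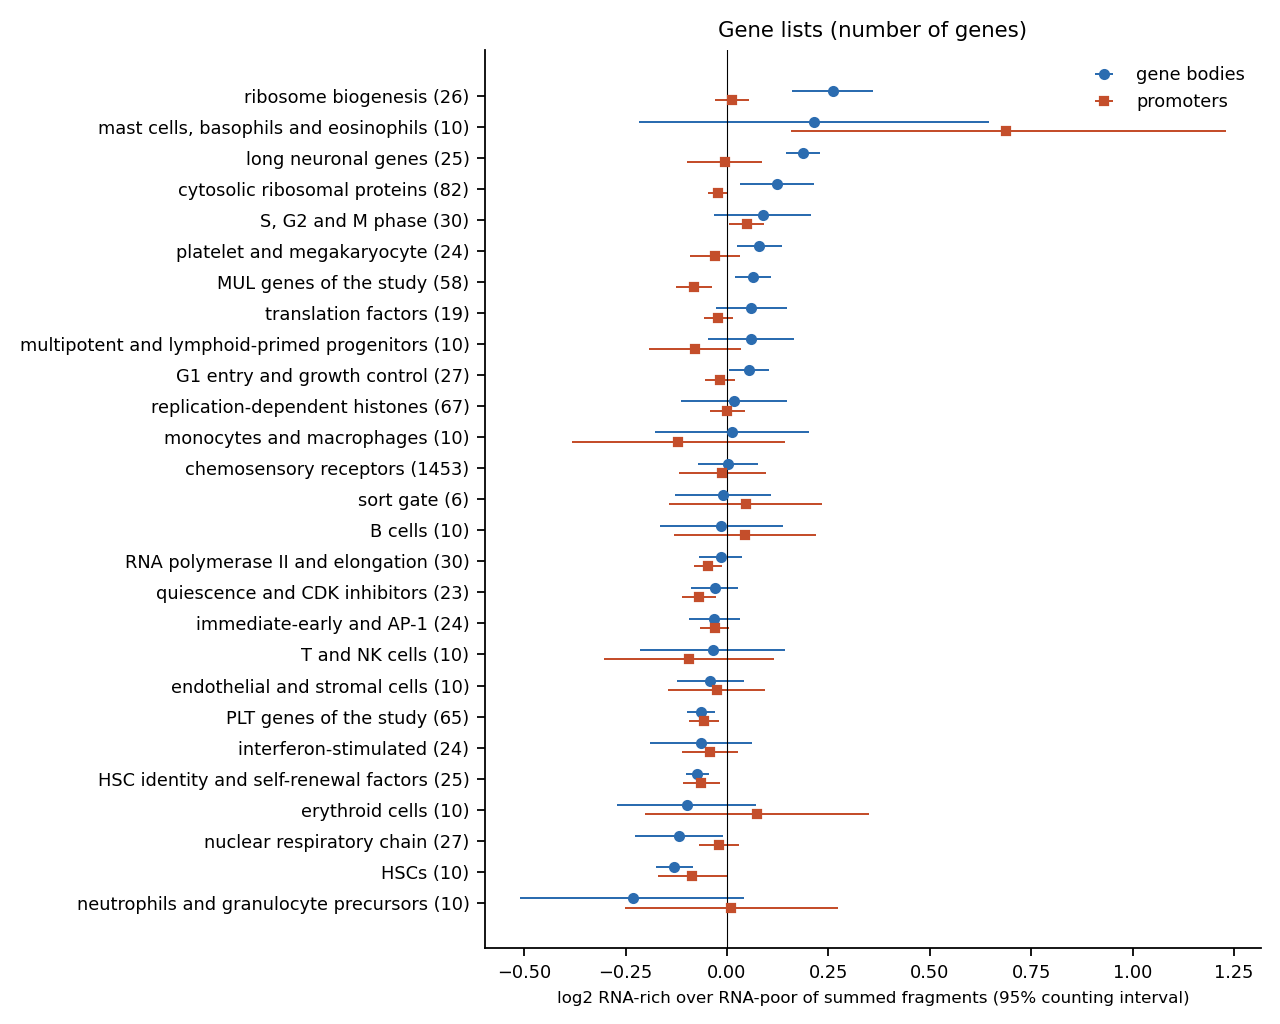
Log2 difference RNA-rich over RNA-poor of summed fragments with 95% counting interval for each gene list, gene bodies as circles and promoters as squares, with the number of genes in brackets. Bodies of ribosome biogenesis (0.26) and long neuronal genes (0.19) lie to the right and of HSC markers (−0.13) to the left, and promoter lists between −0.02 and 0.00 turn above 0 relative to the median promoter.

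The gene bodies with the greatest differences came from many functions. Mto1, which modifies mitochondrial transfer RNA (chr9:78448208-78475348), had levels of 270, 350, 403, 412 and 448 from ratio bin 1 to 5, the highest difference at 0.73 (0.46 to 1.01). Grik3, a kainate receptor subunit of neurons, was at 0.72, and Trp73, a relative of p53, at 0.71. Fermt3, which activates integrins in blood cells, was at 0.64 with 183 fragments in RNA-poor and 280 in RNA-rich cells. Nckap5, Ccl1, Gulp1, Tor1aip2, Kifc3 and Slc29a4 lay between 0.59 and 0.66, of which Ccl1 is annotated over 127 kb and Tor1aip2 was 0.43 without the promoter windows of every other gene.

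At the low end stood Kif3a, a kinesin of the primary cilium (chr11:53567379-53601967), with levels of 316, 242, 235, 251 and 200 and a difference of −0.66 (−0.99 to −0.34). Gfi1, a repressor that restrains HSC division, had 182 fragments in RNA-poor and 121 in RNA-rich cells, a difference of −0.56 (−0.90 to −0.22). Pdgfc, a growth factor, and Fam171a2 were both at −0.60. Clcn5, Myh15, Rbfox2, Cdca7l and Rhobtb3 lay between −0.52 and −0.50. The 10 highest and 10 lowest gene bodies, Cdc6 at −0.54 among them, kept their direction under 14 of 14 alternatives. Gfi1 ran between −0.83 and −0.10 and Mto1 between 0.22 and 1.10. The kept direction says little, since these genes were chosen by their difference and the alternatives reuse most of the same cells. Ratio bin 4 was above ratio bin 2 in 7 of the 10 highest, and below it in 6 of the 10 lowest, Kif3a not among them.

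Promoters were compared next, and few differed by the fold. Of 12035 promoters with at least 100 fragments in both groups, 80 (0.665%) were higher and 74 (0.615%) lower by at least 1.5-fold in RNA-rich cells, and relative to the median promoter these were 101 and 60. Depth bins 1 to 5 gave 108 and 78, and depth bins 6 to 10 gave 73 and 109, so the balance was not stable. Over all promoters 5330 (44.3%) were above 0 and the median was −0.03. A promoter with 100 fragments has a counting interval of ±0.60 around a fold of 0.58. From ratio bin 2 to ratio bin 4, 47 of the 80 higher promoters (58.8%) and 31 of the 74 lower ones (41.9%) were above 0, against 45.5% of all.

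The promoter with the lowest difference was lower at each step over the ratio bins. Map10, a protein of microtubules, had levels of 150, 119, 76.3, 68.9 and 59.6, with 100 fragments in RNA-poor and 39 in RNA-rich cells and a difference of −1.33 (−1.90 to −0.78). Ratio bin 4 over ratio bin 2, which took no part in ranking it, gave −0.78 (−1.34 to −0.23). Bank1, an adaptor of B cell signals, was at −0.93 and Nectin4, an adhesion protein, at −0.90. Mpg, a DNA repair glycosylase, was at −0.88, and Bcam, an erythroid adhesion protein, and Ccdc177 at −0.87 and −0.86.

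Among higher promoters, Mrpl35, a protein of the mitochondrial ribosome, had 33 fragments in RNA-poor and 68 in RNA-rich cells, a difference of 1.07 (0.45 to 1.72). Slc29a2, a nucleoside transporter, and Emilin1, a matrix protein, were both at 1.00, and for Emilin1 ratio bin 4 over ratio bin 2 gave 0.47 (0.03 to 0.92), whereas for Smim1 it gave −0.46. Smim1, the carrier of the Vel blood group, and Coro6 were at 0.97 and 0.94. Ratio bin 4 was above ratio bin 2 in 5 of the 6 highest promoters and below it in 5 of the 6 lowest. Each of these rested on fewer than 200 fragments, and Mrpl35, with 101 in both groups together, was barely above the minimum. They kept their direction under 13 of 13 alternatives. That says little, since they were chosen by their difference and the alternatives reuse most of the same cells.

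The sequences of the lowest and the highest promoter are shown because they carry the largest promoter differences. They run from 250 bases before to 50 after 1 RefSeq start, were taken from RefSeq with build GRCm38 (chr8:125669568-125669867, plus strand, for Map10, and chr6:71823735-71824034, minus strand, for Mrpl35), and capitals mark the motif letters searched on both strands. The count for Mrpl35 covers windows around all its annotated starts, 3.05 kb in all, so its difference was not assigned to the sequence printed. Map10 held the ETS letters GGAAG, the KLF letters GGGCGG and the E-box letters CAGCTG and CACGTG, and Mrpl35 the ETS letters alone. A match is a description of the letters only.
Map10: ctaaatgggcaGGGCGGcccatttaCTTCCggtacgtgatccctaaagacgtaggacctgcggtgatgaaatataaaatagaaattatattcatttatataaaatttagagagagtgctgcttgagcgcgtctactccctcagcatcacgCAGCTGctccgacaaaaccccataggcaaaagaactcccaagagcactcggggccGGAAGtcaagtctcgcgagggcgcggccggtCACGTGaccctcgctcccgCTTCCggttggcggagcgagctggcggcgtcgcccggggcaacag
Mrpl35: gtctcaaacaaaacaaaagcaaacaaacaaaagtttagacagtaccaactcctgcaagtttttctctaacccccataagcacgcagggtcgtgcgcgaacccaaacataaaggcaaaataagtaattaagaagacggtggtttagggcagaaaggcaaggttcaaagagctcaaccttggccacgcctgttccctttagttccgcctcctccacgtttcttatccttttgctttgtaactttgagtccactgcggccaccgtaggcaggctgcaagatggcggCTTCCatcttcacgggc

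Distal tiles, windows of 500 bp whose centre lies over 2000 bp from every annotated transcript start, were compared as stand-ins for enhancers. Tiles with enough fragments were lower in RNA-rich HSCs on the whole, although the share of all distal fragments was higher. Of 4506 tiles with at least 100 fragments in both groups, 64 (1.42%) were higher and 151 (3.35%) lower by at least 1.5-fold, and relative to the median tile these were 126 and 86, which turns the balance. Depth bins 1 to 5 gave 16 and 17, and depth bins 6 to 10 gave 19 and 99. Only 1732 (38.4%) were above 0 and the median was −0.07. From ratio bin 2 to ratio bin 4, 39 of the 64 higher tiles (60.9%) and 55 of the 151 lower ones (36.4%) were above 0, against 42.6% of all.

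The tiles with most fragments tended to be lower in RNA-rich cells. The median tile tested held 145 fragments in both groups together, and the tile with most held 2978 in RNA-poor and 2613 in RNA-rich cells. Genome regions that gather reads for technical reasons were not masked, so a high count need not mark an enhancer. The 12 tiles with most fragments, chosen after their values were seen, ran from −0.39 to −0.00 with a median of −0.23, and 4 of them had intervals that hold 0. In ratio bin 4 over ratio bin 2, 4 of the 12 were above 0. The tile at chr13:9011501-9012000 had levels of 4461, 4207, 4348, 4256 and 3991, a difference of −0.16 (−0.24 to −0.08). The tile at chr19:61266501-61267000 had 1409 fragments in RNA-poor and 1058 in RNA-rich cells, a difference of −0.39 (−0.50 to −0.27). Of the 12 promoters and the 12 gene bodies with most fragments, 7 each were below 0.

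The higher tiles described here lay in introns or away from annotated genes. A tile in an intron of Cavin2, a coat protein of caveolae (chr1:51300001-51300500), was at 1.18 (0.56 to 1.83). A tile 76561 bp from Mdm1 and 47267 bp from the closest annotated start (chr10:118065001-118065500) was at 0.98. It was also higher in ratio bin 4 than in ratio bin 2, at 0.55 (0.08 to 1.02). Others lay 5799 bp from Marc2 (1.03) and in introns of Cuedc1 (0.94) and Cpne2 (0.88).

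The tile with the lowest difference was in an intron of Arid1b, a subunit of the BAF chromatin remodeler (chr17:5324501-5325000), with levels of 118, 80.5, 74.7, 70.5 and 55.0 and a difference of −1.11 (−1.72 to −0.52). A tile 81303 bp from Bcor, a Polycomb corepressor, and 14782 bp from the closest annotated start (chrX:11999001-11999500) was at −1.04. A tile in an intron of Parp8 was at −1.03 and 1 in an intron of Ltbp4 at −0.96. A tile on exons of Kxd1 was at −0.97. The tile at chr13:113418001-113418500, with no annotated gene, was at −0.95 and was also lower in ratio bin 4 than in ratio bin 2, at −0.92 (−1.57 to −0.30). Of the 6 lowest tiles, 4 were above 0 in ratio bin 4 over ratio bin 2, among them those on chrX (0.12) and in Parp8 (0.03). The 6 highest tiles were all above 0.

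The middle 300 bases of the lowest tile are printed because that tile carries the largest distal difference below 0 (GRCm38, plus strand, chr17:5324601-5324900), with motif letters of either strand in capitals. It holds the GATA letters AGATAA, found in 22.9% of the 4506 tiles, the ETS letters GGAAG, found in 89.5%, the KLF letters GGGCGG or CACCC, found in 81.5%, and the RUNX letters TGTGGT, found in 39.1%. The letters can overlap.
tile_17_5324501: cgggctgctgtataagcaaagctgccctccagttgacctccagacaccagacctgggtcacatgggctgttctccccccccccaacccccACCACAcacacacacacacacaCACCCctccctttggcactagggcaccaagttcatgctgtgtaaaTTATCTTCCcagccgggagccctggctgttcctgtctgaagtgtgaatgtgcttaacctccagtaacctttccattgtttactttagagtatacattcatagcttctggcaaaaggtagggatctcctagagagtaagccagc

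Motif letters were then compared between the higher and the lower tiles. The CTCF letters CAGGGGGC were in 1.56% of higher and 3.31% of lower tiles, against 7.77% of all tiles tested. The STAT letters TTCNNNGAA were in 12.5% and 21.2%, against 14.7%, and the NFY letters CCAAT in 37.5% and 48.3%, against 43.2%. GATA letters were in 26.6% and 22.5%, E-box letters in 50.0% and 39.7%, against 40.0%, and MEIS letters TGACAG in 35.9% and 27.8%, against 31.4%. Most of this was absent at the smaller fold of 0.32 in log2, with 352 higher and 788 lower tiles, where CTCF letters were in 7.10% and 6.85%, STAT in 14.5% and 14.7%, NFY in 43.8% and 43.9% and E-box letters in 39.5% and 40.1%. GATA letters, in 28.4% and 22.8%, and MEIS letters, in 34.9% and 30.6%, kept their direction. So did the RUNX letters, in 43.8% and 39.7% at the larger and 45.2% and 37.9% at the smaller fold, and the AP-1 letters TGANTCA, in 15.6% and 19.9% and then 14.5% and 20.6%, against 17.6%. The ETS letters, the SPI1 letters GAGGAAGT and the CRE letters TGACGTCA also kept theirs, with smaller gaps. The 64 higher tiles are few, so 1 tile is worth over 1% of them. By base content, the tiles with the lowest GC content had the lowest median, at −0.12, with 8 higher and 33 lower, and the other GC groups had medians from −0.07 to −0.06.

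Most marker lists of other blood cells differed within counting error. Markers of mast cells, basophils and eosinophils, 10 of 10 found over bodies and promoters, held 137 fragments in RNA-poor and 178 in RNA-rich cells, 1.57 and 2.08 per kb, a difference of 0.41 (0.08 to 0.74). Their most abundant gene per length, Prg2, went the other way with 5.03 and 4.39 per kb, and Fcer1a had no fragment in RNA-rich and 2 in RNA-poor cells. Gata1, also a platelet gene, had 32 and 62, a difference of 0.98 (0.34 to 1.65), and made up most of the gain of the list. The list was not summed without Gata1. Promoters of the list were at 0.69 (0.16 to 1.23) and above 0 in 13 of 13 alternatives. In gene bodies alone the list was at 0.21, and turned to −0.18 between the highest and lowest 1 in 10 cells by ratio. B cell markers were at 0.01, T and NK cell markers at −0.06, neutrophil markers at −0.11, monocyte markers at −0.03, erythroid markers at −0.05, multipotent progenitor markers at −0.00 and endothelial and stromal markers at −0.04, each with an interval that holds 0 and with 10 of 10 genes found. In gene bodies alone the neutrophil markers were at −0.23 (−0.51 to 0.04) and below 0 in 14 of 14 alternatives. In ratio bin 4 over ratio bin 2 these bodies were at −0.32 (−0.59 to −0.05). The neutrophil promoters were at 0.01, a direction kept in only 3 of 13 alternatives, from −0.31 to 0.28. The other lists lay between −0.10 and 0.06 in gene bodies and between −0.12 and 0.07 at promoters, with intervals that hold 0. Hba-a1 was at 0 in 1 group among the erythroid markers, whose most abundant gene Klf1 had 136 per kb in RNA-poor and 117 in RNA-rich cells.

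Several quality measures differed with the groups, and their part in the results was not tested. Fragments in peaks were 70.5% of fragments in RNA-poor and 68.7% in RNA-rich cells, a difference of −1.80 points that was −0.83 with intronic UMIs and −0.64 in depth bins 1 to 5. Mitochondrial read pairs were 2.74% of the sum in RNA-poor and 0.689% in RNA-rich cells, although the median cell had 0.199% and 0.273%. The sum rested on few cells: 81 of 597 RNA-poor (13.6%, 10.9 to 16.6) and 10 of 590 RNA-rich cells (1.69%, 0.816 to 3.09) had over 5% of such pairs, and without such cells the difference turned to 0.14 points. The promoter share difference without these cells was −0.66 points, and the ribosomal RNA locus was at −0.18.

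Duplicate read pairs were 68.0% and 69.8%, which turned to a difference of −0.58 points without the cells rich in mitochondrial pairs. The median nucleosome signal was 0.690 in RNA-poor and 0.712 in RNA-rich cells, and the median enrichment at transcript starts 40.4 and 38.8. Intronic UMIs were 46.3% and 49.3% of UMIs, which belongs to the measure that chose the cells, and with the ratio from exonic UMIs the difference turned to −1.74 points. The antisense part of intronic reads, from the same measure, was 40.9% in the median RNA-poor and 36.7% in the median RNA-rich cell, and its summed difference of −4.37 points kept its direction in 11 of 11 alternatives. A doublet mark, given by too many sites with over 2 fragments, was on 10 RNA-poor (1.68%) and 27 RNA-rich cells (4.58%). Without marked cells the promoter share difference was −1.03 points. More RNA per cell and more UMIs read per RNA molecule cannot be told apart.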

How the data were processed

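The deposited files hold ATAC fragments and per-barcode counts that the authors made with Cell Ranger ARC 2.0.2 on GRCm38 with GENCODE M21, and their unit is counts. Fragments were assigned by midpoint to promoters, to gene bodies outside the gene's own promoter, and to 500 bp tiles. Levels are sums per group over all its fragments, and log2 differences compare the groups. No test was made: cells of 1 preparation are not replicates. Minimums were 300 fragments (gene bodies) and 100 (promoters, tiles), with 1.25-fold and 1.5-fold as the call. Intervals are exact 95% Poisson or Clopper-Pearson intervals, except that of the difference in promoter share, which is a 95% normal approximation.

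Named were, by log2 difference among features tested, the 10 highest and 10 lowest gene bodies, 6 and 6 promoters, 6 and 6 tiles, and in each list the 2 members with most fragments, the highest and the lowest. Not every feature that this rule names is described. The members and lists were chosen with earlier results of these data known. Python 3.11.15, numpy 2.4.6, scipy 1.17.1, pandas 2.3.3 and matplotlib 3.10.9 were used, and the code was tested on simulated data. Alternatives changed the ratio, the depth limits, the bins, the scaling, the counting and the minimum.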

Additional observations from a re-analysis of the deposited data

How the results depend on the processing

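The difference in the share of fragments in promoters, −0.962 points, was below 0 under all 14 alternatives: −0.867 between the highest and lowest 1 in 10 cells by ratio, −1.03 without doublet-marked cells, −1.25 with over 5000 fragments in peaks, −1.49 with bins and ratio on fragments in peaks, −0.524 with intronic and −1.06 with exonic UMIs, and −0.823 and −1.03 in depth bins 1 to 5 and 6 to 10. Added after seeing the data, it was −0.655 without cells with over 5% mitochondrial read pairs and −1.21 without cells with under 60% of fragments in peaks. The ratio on fragments in peaks and the 60% filter both use a measure tied to the promoter share. Their values can thus be partly set by the choice of cells. The cause of the difference was not tested.

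Counts past the fold, higher and lower, moved as follows. With 1 in 10 cells by ratio there were 107 and 62 gene bodies, 107 and 119 promoters, and 12 and 36 tiles. With exonic UMIs there were 126 and 93 promoters and 67 and 235 tiles. Depth bins 1 to 5 gave 55 and 28 gene bodies, 108 and 78 promoters, and 16 and 17 tiles, and depth bins 6 to 10 gave 95 and 89 gene bodies, 73 and 109 promoters, and 19 and 99 tiles. Relative to the median, tiles were 126 and 86. Doubled minimums gave 33 and 15 gene bodies, 13 and 11 promoters, and 6 and 13 tiles. With at least 1 fragment in each group there were 4586 and 2587 gene bodies of 18700, 1364 and 937 promoters of 17638, and 17367 and 17236 tiles of 85731, the last among tiles with 25 fragments over the 3108 cells. Fewer cells or other minimums change how many features are tested, and other causes were not tested.

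The balance of promoters turned under several alternatives. That of tiles turned relative to the median and, narrowly, with at least 1 fragment in each group. Several lists within the fold, and the differences in intronic UMIs, duplicate and mitochondrial pairs, changed sign. Of the 179 higher gene bodies 171 could be tested with intronic UMIs and 84 were past the fold, and 163 and 121 without cells rich in mitochondrial pairs. In depth bins 1 to 5 only 7 could be tested, so their overlap says little. Counting both ends of each fragment used a doubled minimum. Gene bodies without any promoter window, and lists without Mecom, were added after seeing the data. No paired analysis was possible because there is 1 preparation.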

Other observations

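Gene bodies with most fragments, chosen after their values were seen, add genes outside the lists. Pde4d, which breaks down the second messenger cyclic AMP, had 3439 fragments in RNA-poor and 3052 in RNA-rich HSCs, with levels of 5151, 5039, 4891, 4666 and 4662 from ratio bin 1 to 5 and a log2 difference of −0.14 (−0.21 to −0.07). Nfix, a nuclear factor I protein, was at −0.11 (−0.18 to −0.04). Arid1b, which holds the tile with the lowest difference in an intron, was at 0.08 (0.00 to 0.16) over its whole body.

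Single promoters of the lists differed in both directions. The promoter of Cdk2, the kinase that cyclin E activates, was at −0.31, while that of Ccne2 was at 0.52. The promoter of Tbp, the TATA-binding protein, was at −0.37, and that of Oasl2, an interferon-stimulated gene, at 0.48.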
